A study of Mus musculus with 4 samples.

Results

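G2/M-phase tumour cells were selected on 5 measured transcripts: a barcode, read as 1 cell, was taken when it carried 10 or more unique molecular identifiers (UMIs, counted transcript molecules) summed over Cenpf, Cenpe, Ccnb1, Plk1 and Aurka. Barcodes were first kept at 500 or more UMIs, 300 or more detected genes and at most 20% mitochondrial UMIs, and those with 2 or more UMIs summed over the leukocyte genes Ptprc, Tyrobp, Fcer1g and Laptm5 were left out. The rule found 5426 G2/M cells among 31053 kept barcodes, out of 31533 deposited. The other 25627 kept barcodes served as the comparison and are called the remaining barcodes.

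Mouse tumours, labelled MB, were dissociated fresh, and single cells were captured on a droplet system that counts transcripts at their 3′ end. The SG groups, 1 of males and 1 of females, carried fSMO-M2, a floxed active Smoothened, together with hGFAPcre, in which the human GFAP promoter, active in neural stem cells and radial glia, drives Cre. Both YSG groups had these alleles and fYap1, a floxed allele of the Hippo pathway coactivator Yap1, and are described as rescued and taken at end point. Ages, the number of animals behind a library and the zygosity of the alleles were not given in the sources used here. Each group was 1 library, so no difference was tested. Genotype or sex cannot be told apart from animal, litter, age at collection or capture run. Throughout, 4 values in a row are given for the males of SG and of YSG, followed by the females of SG and of YSG.

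G2 and mitosis are the stretch of the cell cycle between the end of DNA replication and the separation of the daughter cells. Cyclin B with Cdk1 drives entry into mitosis, kinetochore proteins and kinesins attach and move the chromosomes on the spindle, and the anaphase promoting complex then marks cyclin B and securin for destruction. Hedgehog signalling keeps granule neuron progenitors of the cerebellum dividing, and active Smoothened holds that pathway on.

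Many genes of this phase share a short promoter word, TTTGAA, known as the cell cycle genes homology region and read by the MuvB complexes, often with CCAAT boxes bound by NF-Y. The promoter windows of the 5 genes that chose the cells are shown, and 3 of the 5 held both motifs. They come from RefSeq on build GRCm38.p6, run from 250 bases before the start of the gene to 50 bases after it, and are written 5′ to 3′ on the strand of the gene. Capitals mark TTTGAA and CCAAT, each looked for on both strands. The window of Cenpf lies at chr1:189688037-189688336 (minus strand), of Plk1 at chr7:122159185-122159484 (plus strand), of Aurka at chr2:172370521-172370820 (minus strand), of Ccnb1 at chr13:100786437-100786736 (minus strand) and of Cenpe at chr3:135212313-135212612 (plus strand).
Cenpf: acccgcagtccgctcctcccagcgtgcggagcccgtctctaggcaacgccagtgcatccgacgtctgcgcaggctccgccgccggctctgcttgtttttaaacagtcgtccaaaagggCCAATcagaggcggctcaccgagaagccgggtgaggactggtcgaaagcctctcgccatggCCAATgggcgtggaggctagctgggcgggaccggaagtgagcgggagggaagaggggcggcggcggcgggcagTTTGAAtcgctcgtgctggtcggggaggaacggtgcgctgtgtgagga
Plk1: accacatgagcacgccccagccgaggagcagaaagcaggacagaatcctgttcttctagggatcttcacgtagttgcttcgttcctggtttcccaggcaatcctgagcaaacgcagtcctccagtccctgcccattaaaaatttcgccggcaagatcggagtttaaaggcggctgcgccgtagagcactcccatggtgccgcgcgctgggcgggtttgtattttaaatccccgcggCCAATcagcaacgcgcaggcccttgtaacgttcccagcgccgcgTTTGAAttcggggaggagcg
Aurka: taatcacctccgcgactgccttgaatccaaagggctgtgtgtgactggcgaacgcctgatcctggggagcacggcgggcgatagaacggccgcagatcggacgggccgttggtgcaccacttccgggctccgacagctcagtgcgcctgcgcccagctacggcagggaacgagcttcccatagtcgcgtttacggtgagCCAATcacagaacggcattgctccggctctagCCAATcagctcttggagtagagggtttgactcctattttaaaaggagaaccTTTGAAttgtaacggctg
Ccnb1: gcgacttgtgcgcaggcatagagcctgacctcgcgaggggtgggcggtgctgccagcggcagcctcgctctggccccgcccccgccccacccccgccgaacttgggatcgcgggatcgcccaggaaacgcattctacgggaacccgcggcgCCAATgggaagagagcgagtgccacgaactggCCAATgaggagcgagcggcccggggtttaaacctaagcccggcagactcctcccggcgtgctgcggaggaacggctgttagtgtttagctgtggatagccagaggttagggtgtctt
Cenpe: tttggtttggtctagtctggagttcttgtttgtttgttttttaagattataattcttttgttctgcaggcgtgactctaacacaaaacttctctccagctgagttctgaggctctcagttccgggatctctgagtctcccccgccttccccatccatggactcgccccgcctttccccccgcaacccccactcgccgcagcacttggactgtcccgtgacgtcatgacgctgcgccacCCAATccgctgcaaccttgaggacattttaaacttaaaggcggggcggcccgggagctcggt

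In Cenpf, TTTGAA began at base 3 of the gene, in Plk1 at base 31 and in Aurka at base 33. CCAAT began 132 and 71 bases before the start in Cenpf, 14 bases before it in Plk1, 51 and 19 bases before it in Aurka, 99 and 67 bases before it in Ccnb1, and 12 bases before it in Cenpe. The windows of Ccnb1 and Cenpe held no TTTGAA, and forms of the region spelled otherwise were not looked for. Over all 32851 mouse windows, 17.9% held TTTGAA, 37.4% held CCAAT and 6.95% held both, where a match of 1 motif could overlap a match of the other by at most 1 base. These matches describe letters in a window and not binding.

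The share of kept barcodes that met the rule was lower in YSG than in SG in both sexes. It was 1541, 1213, 1726 and 946 cells of 8404, 7855, 7645 and 7149, or 18.3% (17.5 to 19.2%), 15.4% (14.6 to 16.3%), 22.6% (21.6 to 23.5%) and 13.2% (12.5 to 14.04%), with exact Clopper-Pearson 95% intervals. The YSG over SG ratio of shares was 0.842 (0.786 to 0.902) for males, and for females 0.586 (0.545 to 0.630). YSG females had the lowest share and SG females the highest. All intervals given here cover counting error only and not differences between animals.

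A fixed number of UMIs is reached more easily in a deep barcode, and SG females were the deepest library. The medians over all kept barcodes were 6202, 5880, 7428 and 6687 UMIs. Each barcode was therefore thinned at random to 4000 UMIs, and 4 or more UMIs of the 5 genes were required. The shares were then 21.2% (20.2 to 22.1%), 19.6% (18.6 to 20.6%), 20.7% (19.7 to 21.7%) and 14.6% (13.8 to 15.6%), after 1492, 1599, 990 and 1265 shallower barcodes had been left out. The YSG over SG ratio at equal depth was 0.925 (0.864 to 0.990) for males, and for females 0.709 (0.656 to 0.766). YSG females stayed lowest, and the other libraries lay closer together than by the fixed number. At 2000 UMIs and 3 or more the ratios were 0.989 for males and 0.744 for females, so the male ratio was then close to 1.

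**Figure D1:**
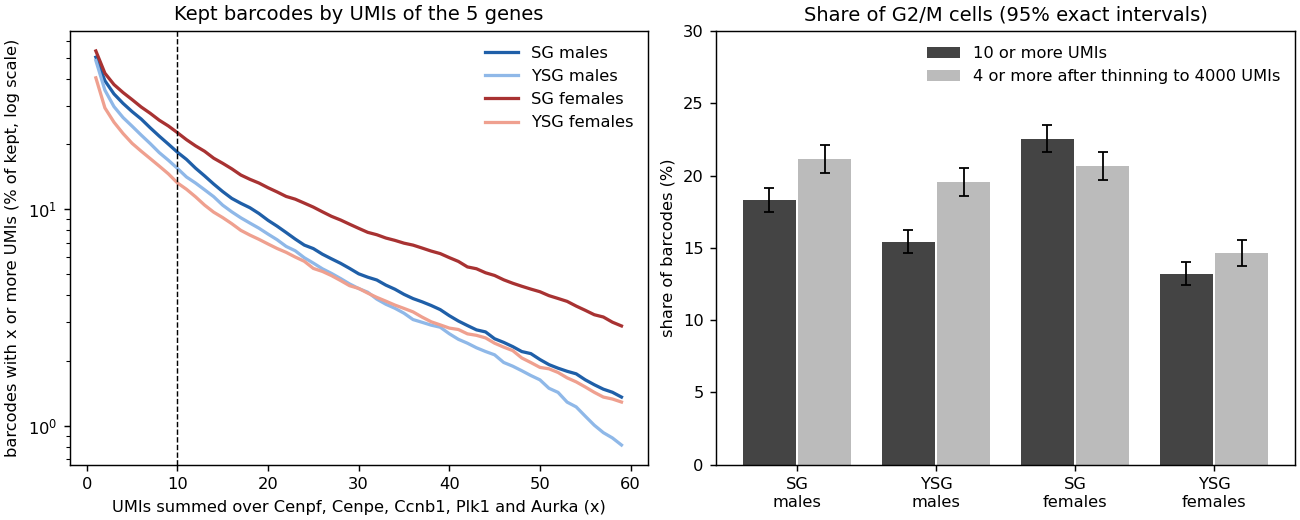
Left, share of kept barcodes (percent, log scale) with x or more UMIs summed over the 5 genes in each library, with the cutoff of 10 UMIs marked. Right, share of barcodes that met the rule and share at equal depth, with exact 95% intervals: YSG females are lowest at 13.2% and 14.6%, and SG females go from 22.6% to 20.7% when depth is made equal.

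Mature oligodendrocytes do not divide, so they gave a measure of background. Barcodes with 5 or more UMIs over Mag, Mog, Mobp, Cldn11 and Ermn numbered 16, 21, 11 and 15, and 2, 3, 3 and 2 of them met the rule. Those shares were 12.5% (1.55 to 38.3%), 14.3% (3.05 to 36.3%), 27.3% (6.02 to 60.97%) and 13.3% (1.66 to 40.5%), at median depths of 7872, 7668, 11225 and 10883 UMIs. The intervals held the share of all kept barcodes in every library. With only 11 to 21 barcodes they are too wide to tell the background from that share. The shares are therefore shares of barcodes that met the rule and are not read as shares of cycling cells. Of the 63 barcodes, 53 had 0 to 7 UMIs of the 5 genes, and their library medians were 0, 0, 1 and 0 UMIs against 19, 19, 22 and 20 in G2/M cells. The 10 that met the rule held 11225 to 87419 UMIs and carried 10 to 77 UMIs of 6 granule progenitor markers as well. At equal depth 0, 0, 1 and 1 of 16, 19, 10 and 13 met the threshold.

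G2/M cells were deeper than the remaining barcodes in every library. Their median UMI counts were 13794, 11500, 18072 and 13456 against 5537, 5386, 6378 and 6203, and their median numbers of detected genes 4350, 3896, 5030.5 and 4219 against 2534, 2487, 2792 and 2767. Barcodes above the cutoff for the top 6% of doublet scores numbered 455, 463, 349 and 394, in each library somewhat fewer than 6% of kept barcodes. They made up 12.1%, 11.3%, 9.33% and 12.9% of G2/M cells and 3.90%, 4.91%, 3.18% and 4.38% of the remaining barcodes. The flagged set was smallest in SG females. Doublets were kept in the main values because the caller's own threshold marked 1, 0, 0 and 0 barcodes and had not worked. Between any pair of libraries 9 to 21 kept barcodes and at most 1 G2/M barcode had the same sequence.

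Markers of the granule lineage were present in the G2/M cells. A UMI of Atoh1, Barhl1, Zic1, Pax6, Gli1 or Mfap4 was found in 99.6%, 99.9%, 99.7% and 99.7% of G2/M cells and in 95.4%, 96.9%, 95.4% and 96.7% of the remaining barcodes, which are shallower. A UMI of these genes was also found in 13, 17, 8 and 9 of the 16, 21, 11 and 15 oligodendrocyte barcodes, which should lack them, so having 1 does not tell the lineage of a single barcode. Zic1, a transcription factor of granule cells, was at 417, 699, 429.8 and 562 CPM (counts per 1000000 UMIs, from UMIs summed over the G2/M cells of a library). Ptprc, the pan-leukocyte gene, had 0 UMIs in the G2/M cells of all 4 libraries, from which leukocytes had already been left out. The 8 astroglial genes summed to 439, 377, 494 and 291 CPM in G2/M cells and to 769.8, 564, 719 and 408 CPM in the remaining barcodes. At least 5 UMIs of these 8 genes were found in 50.6%, 45.1%, 59.6% and 37.7% of G2/M cells. In the shallower remaining barcodes the shares were 23.5%, 21.4%, 24.8% and 18.1%. The 4 erythroid genes summed to 33.8, 0.114, 0.0500 and 0.0681 CPM in G2/M cells, highest in SG males.

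The genes that chose the cells did so unequally. Cenpf, a large kinetochore protein that builds up in G2, supplied 48.6%, 49.8%, 49.2% and 53.6% of the UMIs of the 5 genes and was detected in 99.7 to 99.9% of G2/M cells. Cenpe, the kinetochore kinesin, supplied 25.3 to 26.8%, and Ccnb1, cyclin B1, 14.5 to 17.6%. The kinase genes Plk1 and Aurka supplied 2.59 to 4.19% and 3.95 to 4.49%, and Plk1 was detected in 44.1%, 39.1%, 56.7% and 39.1% of G2/M cells. All 5 genes were detected together in 29.0%, 24.8%, 38.5% and 26.0%. The rule was carried mainly by Cenpf and Cenpe, and detection of Plk1 was highest in the deepest library.

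The levels of these genes were set by the rule. Cenpf was at 736, 872, 669.8 and 977 CPM and Cenpe at 406, 449, 354 and 462 CPM in G2/M cells. Ccnb1 was at 256, 308, 219.7 and 265 CPM, Aurka at 66.5, 75.9, 61.1 and 72.1 CPM and Plk1 at 49.0, 45.3, 57.05 and 47.2 CPM. Across G2/M cells the Spearman rho between UMIs of Cenpf and Ccnb1 was 0.54, 0.51, 0.65 and 0.52 (n = 1541, 1213, 1726 and 946 cells, which share their depth). Among all pairs of the rule genes this was the highest rho in each library. The lowest in each library was that of Cenpe and Plk1, at 0.19, 0.20, 0.25 and 0.18. The UMIs of these genes also chose the cells, so the rho values do not measure their association apart from the choice.

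The cutoff falls on a continuum. Barcodes with 10 or 11 UMIs of the 5 genes numbered 240, 175, 226 and 130, and those with 8 or 9 numbered 287, 221, 244 and 185. Just inside the cutoff the cyclin-dependent kinase gene Cdk1 was at 181, 147, 152 and 185 CPM, and just outside at 155, 150.4, 152 and 187 CPM. Hmmr, a spindle protein gene, was at 97.0, 115, 83.2 and 102 CPM inside and 89.6, 104, 86.2 and 93.3 CPM outside. Cdk1 and Hmmr were at similar levels on either side. By these genes the remaining barcodes hold some much like the G2/M cells near the cutoff. Ube2c, a ubiquitin-conjugating enzyme gene, was higher inside, though barely in SG females, at 278, 351, 200 and 277 CPM against 219, 305, 197 and 228 CPM. Of the remaining barcodes, 60.7%, 60.7%, 59.6% and 68.6% had no UMI of the 5 genes.

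Set against the remaining barcodes, G2/M cells held more transcripts of most of the mitotic apparatus. Of 7421 genes at 20 CPM or more in at least 1 set of barcodes, 129 (1.74%) were more than 2-fold higher in G2/M cells in all 4 libraries and 5 (0.0674%) more than 2-fold lower. Ratios are log2 ratios of CPM with 1 CPM added to both sides, which understates the ratio of scarce transcripts. Since the same cells were chosen by genes of this programme, these counts are a description and carry no test. Apart from the 5 genes, 89 of the 129 belonged to 11 lists of mitotic genes, 0 to the S phase or histone lists, and 34 to none of the cell cycle lists. Against only those remaining barcodes with no UMI of the 5 genes, a comparison added after the data were seen, 273 of 7569 genes (3.61%) were higher and 43 (0.568%) lower. The 273 held 112 genes of the mitotic lists, 24 of the S phase list and 11 of the histone list. The absence of genes of the S phase and histone lists from the 129 therefore depends on which barcodes are compared. The 129 did hold H2afx, a histone variant gene outside these lists.

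**Figure D2:**
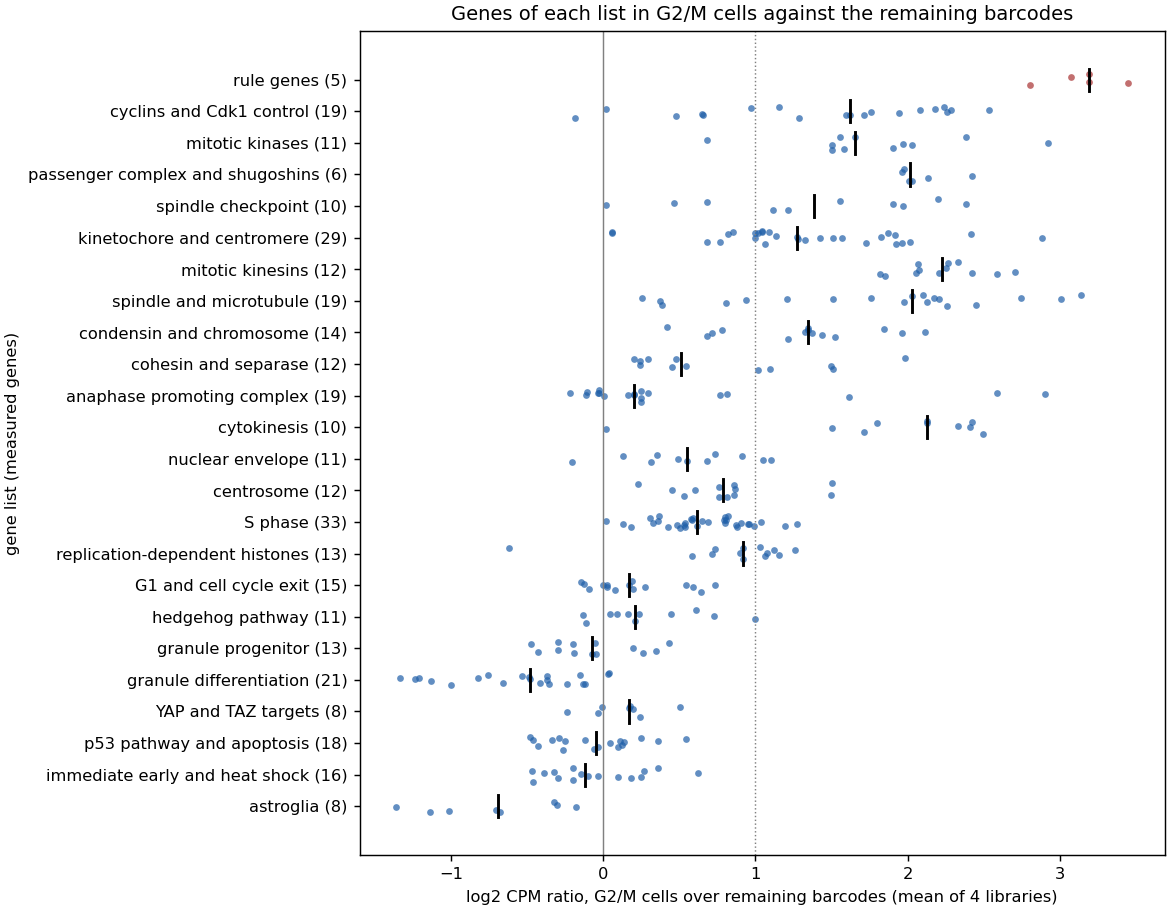
Each point is 1 measured gene, placed by the mean over the 4 libraries of its log2 CPM ratio, G2/M cells over remaining barcodes; black bars are list medians, the dotted line is 2-fold, and the genes of the rule are red. Mitotic kinesins, cytokinesis and passenger complex genes lie far to the right, the medians of S phase genes stay left of the dotted line, and the median of granule differentiation genes is below 0.

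Genes of the entry into mitosis were higher in G2/M cells. Cdk1 was at 226, 200.2, 195.3 and 251 CPM in G2/M cells against 54.0, 40.9, 48.9 and 36.2 CPM in the remaining barcodes, with log2 ratios of 2.04, 2.26, 1.98 and 2.76. Ccna2, cyclin A2, had log2 ratios of 1.91, 2.26, 1.86 and 2.68, and Cks2, a small Cdk-binding protein gene, of 1.51, 1.70, 1.59 and 2.24. Of 19 measured cyclin and Cdk1 control genes 12 were beyond 2-fold in all 4 libraries, among them Cdc25c, the phosphatase that switches on Cdk1, with log2 ratios of 2.30, 2.42, 2.28 and 3.13. Of 11 mitotic kinases 10 were beyond 2-fold, the exception being Vrk1. Nek2, a centrosome kinase gene, was at 75.5, 85.5, 71.9 and 90.2 CPM in G2/M cells against 11.3, 10.1, 10.2 and 7.81 CPM.

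The machinery of the spindle was higher as a body. All 12 mitotic kinesins were beyond 2-fold in all 4 libraries, with list medians of 2.01, 2.21, 2.04 and 2.66 on the log2 scale, where the medians over all genes were -0.03, -0.04, -0.02 and -0.04. Kif11, the motor that pushes spindle poles apart, was at 321, 333, 274 and 319 CPM in G2/M cells and at 76.2, 72.2, 66.3 and 45.6 CPM in the remaining barcodes. Aspm, a spindle pole protein gene known from hereditary microcephaly, was at 192, 196, 173 and 198 CPM against 25.3, 22.2, 21.8 and 14.7 CPM. Of 19 spindle and microtubule genes 14 were beyond 2-fold in all 4 libraries. The abundant tubulin gene Tubb5 had log2 ratios of only 0.20, 0.27, 0.23 and 0.33.

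Chromosome attachment and segregation genes followed. All 6 genes of the chromosomal passenger complex and shugoshins were beyond 2-fold, among them Birc5, survivin, at 181, 180.1, 169 and 212 CPM against 55.2, 41.7, 52.5 and 37.5 CPM. Of 29 kinetochore and centromere genes 14 were beyond 2-fold, and Cenpa, the centromeric histone H3 variant, had log2 ratios of 2.54, 2.92, 2.68 and 3.38. Of 10 spindle checkpoint genes 5 were beyond 2-fold, and Bub1b, the checkpoint kinase BubR1, had 2.18, 2.29, 2.18 and 2.88. Zwint, another kinetochore gene, had 0.03, 0.06, 0.04 and -0.05 and was at about the same level in both sets of barcodes.

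Condensin and chromosome genes had 9 of 14 beyond 2-fold, with Top2a, the topoisomerase that untangles sister DNA, at 898, 794, 845 and 929.6 CPM against 264, 206, 265 and 166 CPM. Cohesin and separase genes had 3 of 12, which were Espl1 (separase), Cdca5 (sororin) and Esco2 (a cohesin acetyltransferase). The anaphase promoting complex had 3 of 19, with list medians of 0.20, 0.22, 0.16 and 0.26. The 3 were its activator gene Cdc20, its ubiquitin-conjugating enzyme gene Ube2c and its inhibitor gene Fbxo5, and none of the core subunits. Cdc20 was at 113, 136, 102 and 124 CPM against 22.01, 22.4, 19.3 and 13.1 CPM, and Ube2c at 474, 612, 454 and 640.4 CPM against 70.3, 96.1, 66.4 and 56.7 CPM. Cytokinesis genes had 9 of 10 beyond 2-fold, centrosome genes 2 of 12 and nuclear envelope genes 0 of 11.

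The highest ratio outside the rule belonged to Gas2l3, which encodes a protein that links actin and microtubules in late division. It was at 64.5, 98.4, 63.8 and 91.0 CPM in G2/M cells and at 6.85, 8.22, 5.21 and 5.32 CPM in the remaining barcodes, with log2 ratios of 3.06, 3.43, 3.38 and 3.86. It was detected in 48.1%, 57.5%, 52.4% and 54.5% of G2/M cells and in 3.70%, 4.73%, 3.38% and 3.14% of the shallower remaining barcodes. By their smallest ratio over the libraries the next were Aspm, Hmmr, Ube2c, Nek2, Cenpa, Troap, Depdc1a, Prr11, Dlgap5, Kif2c, Fam83d, Cdc20, Kif23 and Cdc25c. Of these, Hmmr had 2.73, 3.05, 2.70 and 3.54, and Kif23, the kinesin of the central spindle, 2.28, 2.33, 2.30 and 2.77.

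S phase genes were higher too, but by less. None of 33 measured S phase genes was beyond 2-fold in all 4 libraries, 32 were above 0 in all 4, beside 30.5% of all genes, and the list medians were 0.51, 0.66, 0.44 and 0.91. Against the remaining barcodes with no UMI of the 5 genes, 24 of the 33 were beyond 2-fold in all 4 libraries, with list medians of 1.38, 1.39, 1.34 and 1.82, where mitotic kinesins had 3.67, 3.64, 3.72 and 3.88. Pcna, the sliding clamp of DNA polymerase, was at 311, 287, 281 and 325 CPM in G2/M cells and at 221, 189, 208 and 180.3 CPM in the remaining barcodes. Replication-dependent histone genes had list medians of 0.88, 0.87, 0.82 and 1.32, from 13 of 20 genes measured, and most such transcripts lack the poly(A) tail that the assay captures.

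Genes of neurons that have left the cycle were lower in G2/M cells. Of 21 measured granule differentiation genes 18 were below 0 in all 4 libraries, beside 41.6% of all genes, with list medians of -0.52, -0.34, -0.43 and -0.58. Cntn2, an adhesion molecule of young granule neurons, was at 84.7, 104, 92.2 and 82.5 CPM against 201, 207, 197 and 258 CPM. Over all measured genes Pnoc, the nociceptin precursor gene, ranked lowest, with -2.04, -1.48, -1.46 and -3.03. The other genes more than 2-fold lower in all 4 libraries were Mia, Srgap3, Apoe and Chrna3. Of the genes that passed this limit 0 were on the granule differentiation list and 1, Apoe, was on the astroglial list. Granule progenitor genes had list medians of -0.13, 0.03, -0.14 and -0.11, and hedgehog pathway genes of 0.21, 0.14, 0.17 and 0.22.

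Promoter windows were available for 106 of the 129 genes that were higher. Of their 112 windows, 59.8% held TTTGAA, 73.2% held CCAAT and 48.2% held both, against 17.9%, 37.4% and 6.95% of all windows. TTTGAA stood in 10 of 11 windows of mitotic kinesins, 10 of 14 of cytokinesis genes and 9 of 14 of condensin and chromosome genes. Of the other mitotic lists it stood in 10 of 32 windows of kinetochore and centromere genes, 5 of 21 of the anaphase promoting complex and 1 of 5 of the passenger complex and shugoshins, and for the last 5 lists in 3 of 9 to 9 of 17. It stood in 4 of 32 windows of S phase genes and 2 of 22 of granule differentiation genes, while CCAAT was in 20 of the 32 S phase windows. These shares describe the windows and carry no test.

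Within the G2/M cells the rate of the 5 genes varied widely. Each library was split into 4 bins of equal size by UMIs of the 5 genes per 10000 UMIs of the barcode, from bin 1 (lowest) to bin 4. Bin 1 necessarily holds deep barcodes, because 10 UMIs at a low rate need many UMIs. Its median depths were 20819, 20002, 26976 and 19496 UMIs, against 9599, 9183, 12205 and 11866 UMIs in bin 4. Across G2/M cells the Spearman rho between depth and the rate of the 5 genes was -0.53, -0.55, -0.50 and -0.41, which share the depth as a term. What depth contributes to the differences between bins was not tested.

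The genes described here were named after their values were seen, and the bins rest on the rule genes' own rate, so the values are a description. Gas2l3 was at 15.5, 29.9, 13.4 and 24.5 CPM in bin 1 and at 192, 248, 184 and 243 CPM in bin 4. Cdc20 went from 44.9, 49.3, 34.2 and 33.9 CPM to 279, 349, 259.6 and 301 CPM, and Aspm from 81.9, 71.0, 58.2 and 72.6 CPM to 466, 503, 451 and 467 CPM. Each of these genes was higher in each bin than in the one below it in every library. The genes with the next highest log2 ratios of bin 4 over bin 1 were Sapcd2, Cep89, Tuba1c, Pimreg, Hmmr, Arl6ip1 and Cenpa, whose smallest ratios over the libraries ran from 2.47 to 2.27. Mitotic kinesins had list medians of 1.66, 1.73, 1.77 and 1.602. Mki67, the proliferation marker made from S phase on, differed less, with 681, 606, 589 and 737 CPM in bin 1 and 1177, 1210.0, 1129 and 1185 CPM in bin 4.

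Genes of DNA replication ran the other way. Of 33 S phase genes only 1 was higher in bin 4 than in bin 1 in each library, beside 39.3%, 38.4%, 41.6% and 40.7% of all genes, with list medians of -0.56, -0.59, -0.49 and -0.98, where all genes had -0.05, -0.08, -0.04 and -0.06. Ccne2, cyclin E2 of the start of S phase, was at 52.4, 38.1, 53.04 and 76.4 CPM in bin 1 and 22.3, 8.71, 12.7 and 14.6 CPM in bin 4. Mcm6, a subunit of the replicative helicase, was at 123, 162, 136 and 206 CPM in bin 1 and 66.1, 75.5, 72.7 and 87.5 CPM in bin 4. Both genes were lower in bin 4 in all 4 libraries. Over single cells the Spearman rho between the rate of the 5 genes and that of S phase genes was -0.26, -0.29, -0.32 and -0.48 (n = 1541, 1213, 1726 and 946, with depth as a shared term). Bins are ranges of a score and not types of cell.

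**Figure D3:**
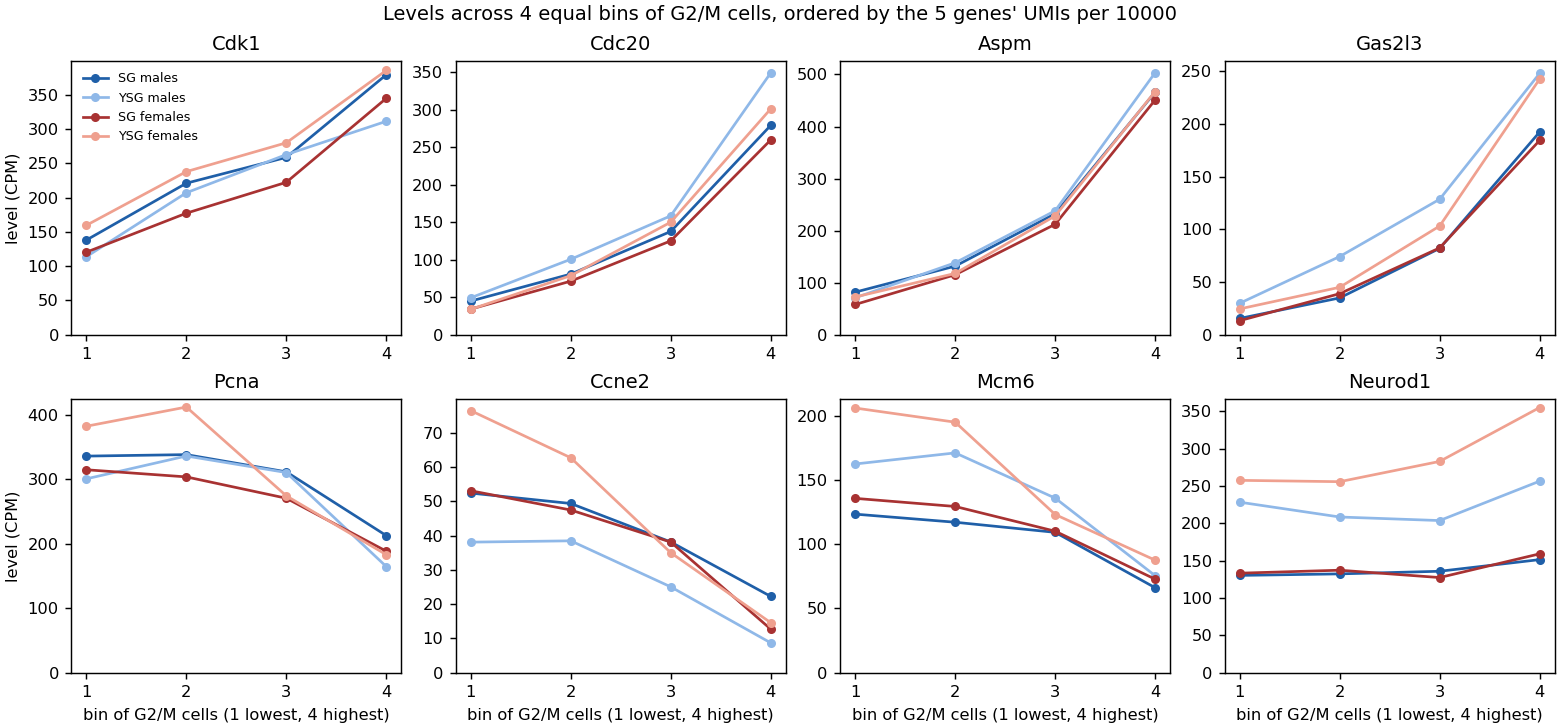
Level (CPM) of 8 genes in 4 equal bins of the G2/M cells of each library, ordered from the lowest (1) to the highest (4) rate of the 5 genes. Cdc20, Aspm and Gas2l3 climb in all 4 libraries, Pcna, Ccne2 and Mcm6 end lower than they began, and Neurod1 is higher in both YSG libraries than in both SG libraries in every bin.

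The genotypes were then compared within the G2/M cells of each sex. The targeted gene was scarce in YSG: Yap1 had 107, 3, 202 and 0 UMIs in G2/M cells, or 4.06, 0.171, 5.05 and 0 CPM. It was 23.8-fold lower (7.91 to 117) in YSG males. In YSG females, with 0 UMIs, the lower limit of the same kind of interval put it at least 19.9-fold lower. The reads need not come from the floxed exons, so the count follows the labels without measuring the deletion. Wwtr1, the paralog TAZ, was at 24.8, 6.72, 29.9 and 9.94 CPM. Smo was at 58.6, 67.0, 59.5 and 59.3 CPM, which would include any SMO-M2 transcript that ends alike, and EYFP, a feature added to the reference, at 38.9, 59.4, 48.8 and 32.8 CPM.

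Of 7056 genes at 20 CPM or more in G2/M cells of at least 1 library, 57 (0.808%) were more than 2-fold higher and 108 (1.53%) more than 2-fold lower in YSG in both sexes. By males alone these were 106 (1.5%) and 144 (2.04%), and by females 99 (1.4%) and 150 (2.13%). The male and female comparisons share no library. Most of these genes differed outside the G2/M cells as well: of the 57, 35 were also more than 2-fold higher in the remaining barcodes of both sexes, and of the 108, 82 more than 2-fold lower. All genes had 0.638% and 1.26% of such genes. With 0.5 on the log2 scale as the limit in the remaining barcodes, 55 of the 57 and 108 of the 108 passed, beside 3.22% and 3.47% of all genes. Only 6 genes (0.085%) had a genotype ratio more than 0.5 higher in G2/M cells than in the remaining barcodes in both sexes, and 3 (0.0425%) more than 0.5 lower. Another 5 (0.0709%), Ren1, Hoxb2, Hist1h2ap, Gm10076 and Mid1, were beyond 2-fold in opposite directions in the 2 sexes.

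**Figure D4:**
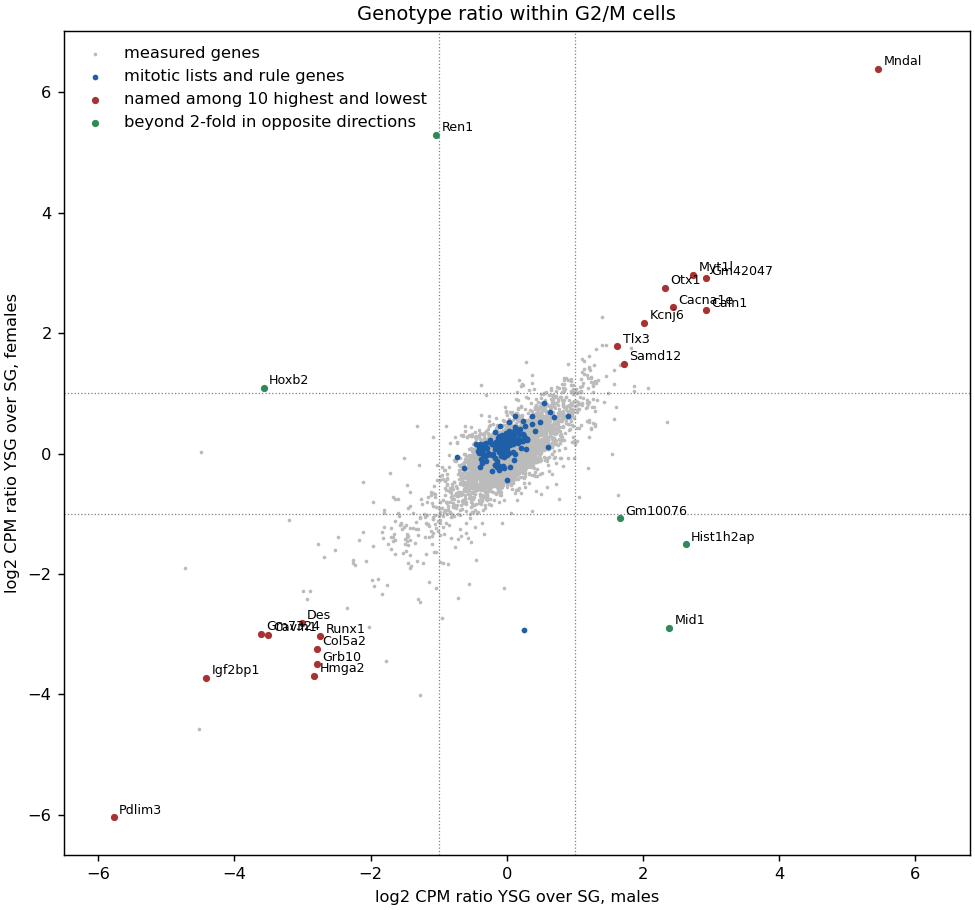
Each point is 1 of 7056 genes, placed by its log2 CPM ratio, YSG over SG, within G2/M cells of males (x) and females (y), with dotted lines at 2-fold. Mitotic genes lie around 0 except for a single point, Pttg1, at -2.93 on the female axis, while Mndal and Pdlim3 mark the far corners and 5 genes lie beyond 2-fold in opposite directions.

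Within G2/M cells the list medians of mitotic genes lay near those of all genes in males and somewhat above them in females. The cells were chosen by a fixed number of UMIs of 5 mitotic genes, which bears on the level of genes made together with them in every library, so these values do not measure the mitotic genes apart from the choice. Over 153 measured genes of the 11 mitotic lists, the median log2 ratio was -0.03 for males and 0.15 for females, where all genes had -0.02 and -0.02. For males 5 of the 153 were above 0.5 and 2 below -0.5, beside 7.02% and 6.18% of all genes. For females 8 were above 0.5 and 1 below -0.5, beside 6.04% and 6.38% of all genes. With the mean of per-cell CPM the female median was 0.08. The male median is close to 0 and was 0.02 when 20 UMIs of the 5 genes were required. Kif11, for example, had log2 ratios of 0.05 and 0.22.

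Outside the G2/M cells the same genes were lower in YSG, most of all in females. In the remaining barcodes the medians were -0.14 for males and -0.34 for females. For males 2 were above 0.5 and 8 below -0.5, beside 4.51% and 4.89% of all genes. For females 1 was above 0.5 and 36 were below -0.5, beside 7% and 6.76% of all genes. The medians were -0.04 and -0.13 when the remaining barcodes were limited to those with no UMI of the 5 genes.

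Pttg1, which encodes securin, the inhibitor of separase, stood apart and was named after its values were seen. It had 1259, 1003, 1949 and 81 UMIs in G2/M cells, or 47.7, 57.1, 48.8 and 5.52 CPM. YSG females were low and the other libraries lay close together. The YSG over SG fold was 0.113 (0.0894 to 0.141) for females and 1.20 (1.10 to 1.30) for males. A Pttg1 UMI was found in 47.7%, 47.5%, 58.1% and 7.51% of G2/M cells, with YSG females at 7.51% (5.91 to 9.37%). In the remaining barcodes Pttg1 was at 18.2, 16.6, 16.8 and 6.38 CPM, so in YSG females it was no higher in G2/M cells than outside them. It lies at chr11:43420250-43426251 of mm10.

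Of the 153 mitotic genes 4 were above 0.5 in both sexes, no larger a share than the 4.07% of all genes. The 4 were Hjurp, Kif14, Stmn1 and Knstrn. Hjurp, the chaperone that loads Cenpa, was at 181, 295, 184 and 282 CPM, with log2 ratios of 0.70 for males and 0.61 for females. Kif14, a kinesin of cytokinesis, was at 27.0, 42.3, 23.4 and 38.3 CPM with 0.63 and 0.69. Stmn1, a microtubule-destabilizing protein gene also known from young neurons, was at 1243, 2313, 1363 and 2092 CPM with 0.90 and 0.62. In each of these both YSG libraries lay above both SG libraries. In the remaining barcodes the ratios were 0.82 and 0.45 for Hjurp, 0.79 and 0.54 for Stmn1, and 0.20 and -0.33 for Kif14.

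Histone genes had medians of unlike sign in the sexes, while the male median of S phase genes lay close to that of all genes. S phase genes had -0.04 for males and 0.22 for females, where all genes had -0.02 and -0.02. Of the 33 S phase genes 16 were above 0 for males and 31 for females, beside 3336 and 3266 of 7056 genes. The female S phase median was 0.01 when 20 UMIs of the 5 genes were required. Replication-dependent histones had -0.50 and 0.31, and the female value was 0.12 when 20 UMIs of the 5 genes were required. Hist1h1b, a linker histone gene, was at 784, 474, 841 and 961 CPM, so the YSG male library was the low one. Histone genes have near-identical copies between which reads may be split, and the difference between the sexes was not tested.

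**Figure D5:**
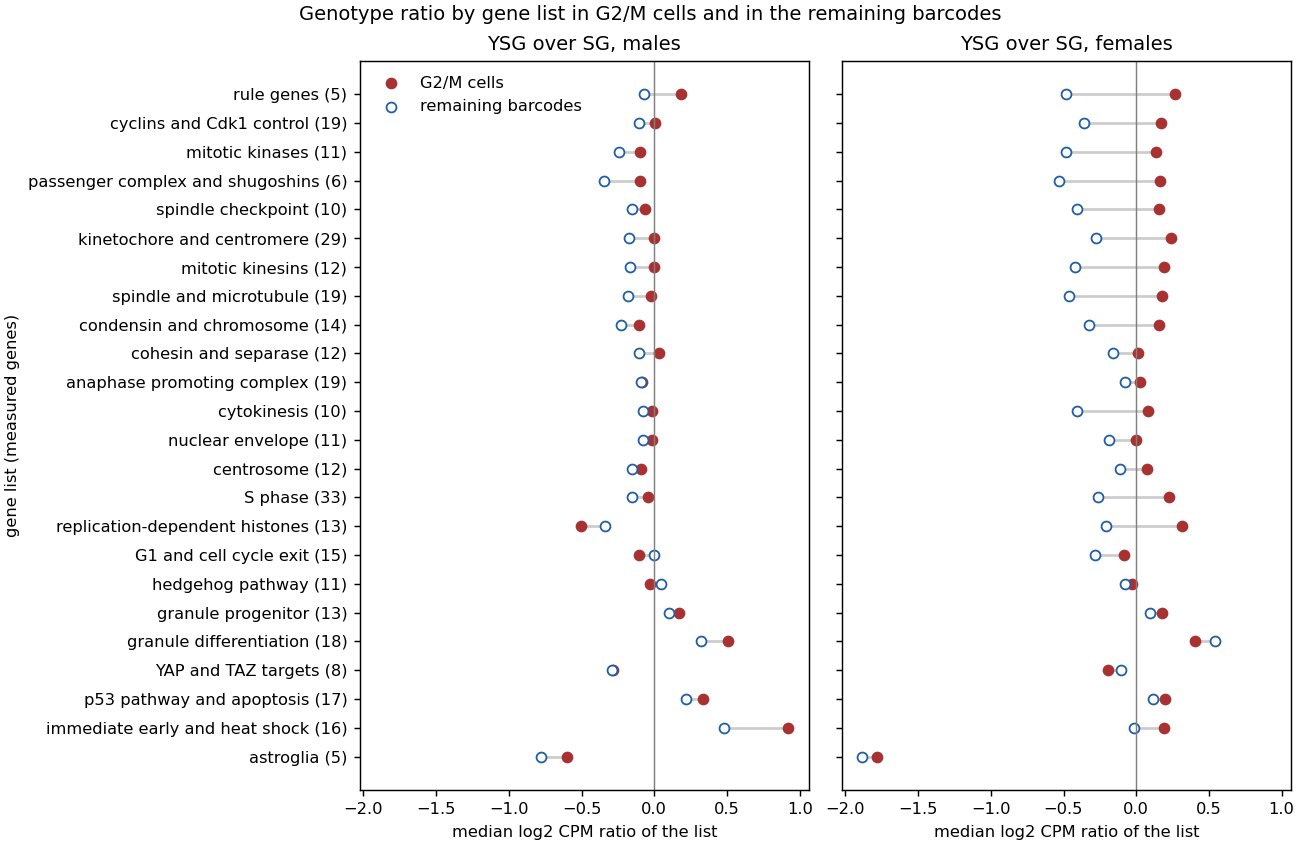
Median log2 CPM ratio, YSG over SG, of the measured genes of each list in G2/M cells (filled) and in the remaining barcodes (open), for males and females. The 11 mitotic lists sit between -0.10 and 0.03 in G2/M cells of males and between 0.01 and 0.24 in females, each to the right of its value in the remaining barcodes, and the immediate early and heat shock list reaches 0.92 in males.

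Some genes of neuronal differentiation were higher in the G2/M cells of YSG in both sexes. Of 18 measured granule differentiation genes 10 were above 0.5 for males and 7 for females, beside 7.02% and 6.04% of all genes, 7 were above 0.5 in both sexes, and 0 were below -0.5, with medians of 0.51 and 0.40. Stmn2, a growth cone protein gene, was at 188, 437, 179 and 471 CPM and was detected in 66.5%, 89.3%, 65.2% and 89.1% of G2/M cells, in 61.9%, 83.6%, 55.7% and 86.8% of the shallower remaining barcodes and in 9, 14, 6 and 10 of the 16, 21, 11 and 15 oligodendrocyte barcodes. Gap43, another growth cone gene, was at 179, 387, 208 and 454 CPM. Neurod1, which promotes granule neuron differentiation, was at 136, 224, 137 and 282 CPM. For all of these both YSG libraries lay above both SG libraries. In the remaining barcodes the list medians were 0.32 and 0.54.

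Among the genes with the largest ratios, several are known from neurons. Myt1l, a neuronal transcription factor, was at 13.2, 93.8, 10.5 and 88.5 CPM, a YSG over SG fold of 7.13 (6.35 to 8.03) for males and 8.46 (7.57 to 9.47) for females. The homeobox gene Otx1 was at 10.9, 58.5, 9.63 and 70.9 CPM, and Tlx3, another homeobox gene, at 30.6, 96.5, 30.6 and 108 CPM. In each case both YSG libraries were high. The ion channel genes Cacna1e and Kcnj6 and the genes Caln1 and Samd12 had log2 ratios from 1.49 to 2.92. Gm42047, a transcript with no assigned name, was at 9.78, 80.7, 17.3 and 137 CPM and was also among the 129 genes higher in G2/M cells than outside them.

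Mndal, of the interferon-inducible p200 family, was nearly confined to the YSG libraries. It had 1, 782, 1 and 1250 UMIs and was found in 0.0649%, 39.2%, 0.0579% and 58.1% of G2/M cells. The level in YSG over that in SG was 1174 (210.1 to 46428) for males and 3402 (609 to 134473) for females, with wide intervals because each SG library held 1 UMI. The log2 ratios were 5.45 and 6.39 in G2/M cells, and 5.42 and 6.53 in the remaining barcodes.

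Genes lower in YSG were led by Pdlim3, an actin-associated protein gene. It had 3633, 27, 5993 and 19 UMIs and was found in 66.1%, 1.98%, 75.7% and 2.01% of G2/M cells. It was 89.6-fold lower (61.5 to 136) for males and 116-fold lower (74.2 to 193) for females. Igf2bp1 and Hmga2, genes of fetal RNA-binding and chromatin proteins, were at 28.9, 0.398, 31.9 and 1.498 CPM and at 14.6, 1.20, 28.7 and 1.29 CPM. Grb10, an imprinted adaptor gene, was at 95.5, 13.0, 111 and 8.85 CPM, and the transcription factor gene Runx1 at 27.4, 3.24, 45.2 and 4.63 CPM. In each case both YSG libraries were below both SG libraries. Cavin1, Gm7324, Des and Col5a2 were also among the 10 lowest, and Cavin1, a caveolar coat gene, was at 97.4, 7.68, 105 and 12.1 CPM.

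Hedgehog pathway genes went both ways, with 1 of 11 above 0.5 and 3 below -0.5 in both sexes, beside 4.07% and 3.85% of all genes. The medians were -0.03 and -0.03, and -0.13 and -0.17 with a minimum of 50 CPM or none. The female value was 0.01 under median-of-ratios scaling. Sfrp1, a secreted Wnt modulator, was at 271, 665, 234 and 539.6 CPM and was higher in YSG. The receptor gene Ptch1 was at 333, 230.1, 401 and 229 CPM, the effector gene Gli1 at 43.2, 27.4, 51.8 and 29.0 CPM, and Gli3 at 36.2, 13.8, 39.9 and 16.1 CPM, all lower in YSG in both sexes. Sox2, a stem cell transcription factor, was at 65.4, 27.9, 75.1 and 28.3 CPM, and Ccnd2, a D-type cyclin of granule progenitors, at 689, 1129, 654 and 947 CPM.

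YAP and TAZ target genes were mostly below the minimum of 20 CPM in these cells. Of 21 genes on the list 8 were measured, with medians of -0.29 and -0.19, and 2, Amotl1 and Lats2, were below -0.5 in both sexes, beside 3.85% of all genes. The partner factor gene Tead1 was at 240.1, 242, 273 and 247 CPM and Tead2 at 103, 73.1, 112 and 94.7 CPM. Ccn1, a classical target, had 281, 42, 295 and 14 UMIs and did not reach the minimum.

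Most immediate early and heat shock genes were higher in YSG males. The list median was 0.92 for males, with 11 of 16 genes above 0.5, and 0.19 for females, with 4 of 16, beside 7.02% and 6.04% of all genes. The female median was 0.31 without the top doublet scores and 0.09 with the mean of per-cell CPM. Hspa8, a constitutive chaperone, was at 1375, 2804, 1288 and 1485 CPM, and Hspa1a, an inducible one, at 8.91, 40.9, 5.05 and 11.9 CPM, where its near-identical copy Hspa1b may share reads. YSG males were the high library for both. The medians in the remaining barcodes were 0.48 and -0.01. Genes of the p53 pathway and apoptosis had medians of 0.34 and 0.20 over 17 genes. In both sexes 1 of the 17 was above 0.5 and 2 were below -0.5, beside 4.07% and 3.85% of all genes. The 1 above was Bbc3, the death gene PUMA, at 29.4, 57.7, 18.8 and 42.6 CPM. The 2 below were Eda2r, with -0.54 and -0.998, and the kinase gene Plk2, with -0.69 and -1.25.

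A few genes had YSG over SG ratios in G2/M cells that lay furthest from those outside them, in either direction. Nr4a2, an immediate early nuclear receptor gene, was at 27.4, 67.2, 19.0 and 36.6 CPM, with log2 ratios of 1.26 and 0.91 in G2/M cells and 0.67 and 0.15 in the remaining barcodes. Ren1, Hspa1a, Fosb and Prm1 also had higher signed ratios in G2/M cells. For Prm1 and for Ren1 in males the ratio was below 0 in both sets and so nearer to 0 in G2/M cells, with -1.45 and -1.51 against -2.01 and -2.51 for Prm1 and -1.04 against -1.79 for Ren1 in males. Ren1 in males was scarce, at 1.40 and 0.171 CPM in G2/M cells and 3.58 and 0.324 CPM outside. The 1 CPM added to both sides therefore weighs on its ratios, most in G2/M cells. For Fosb the ratio in G2/M cells exceeded that outside by 0.71 for males and 0.57 for females. Sparc, a matrix protein gene, was at 47.2, 13.1, 51.9 and 3.88 CPM, with -1.77 and -3.44 in G2/M cells and -1.12 and -2.12 in the remaining barcodes. Anxa6, Lrrfip1, Pdlim3 and Cnr1 had lower ratios in G2/M cells as well. Sparc is also made by astroglia and vessel cells. In G2/M cells the astroglial genes had the sums given above, and the endothelial genes summed to 4.44, 2.22, 4.60 and 2.04 CPM, and the part of such transcripts in these ratios was not tested.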

How the data were processed

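Single-cell RNA from 4 libraries, 1 for each genotype and sex, was analysed. The deposited values are counts, whole UMIs per gene and barcode without normalization. Per the file headers they were made with Cell Ranger 5.0.1, and per the submitters' processing notes the build was mm10. The cells and the 33 gene lists (1 of them joining the 11 mitotic lists) were chosen with earlier results of these data known. Counts were summed over the G2/M cells and over the remaining barcodes of each library, divided to CPM and compared as log2 ratios with a pseudocount of 1 CPM, for genes that reached 20 CPM. Folds come from summed counts with exact conditional binomial intervals, shares carry exact Clopper-Pearson intervals, and ratios of shares carry Katz log intervals, all at 95% and for counting error only. Where a library held 0 UMIs, the lower limit of the interval of the fold is given. The deposited totals were 73271922, 61072375, 86906706 and 58478914 UMIs in the order of the report, and G2/M cells held 26375013, 17568760, 39966568 and 14685466 of them. With 1 library per group nothing was tested.

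Genes are named when they belong to the rule, when they are among the 4 most abundant of a list in G2/M cells or beyond 2-fold by genotype in both sexes within a list, when they are among the 15 highest or 10 lowest in G2/M cells over the rest or the 10 highest or lowest by genotype in both sexes, or when they are among 5 in each direction whose genotype ratio differed most from that in the rest. Y-linked, Xist, Tsix and mitochondrial genes were left out of rankings. Some genes that met these rules are not reported here. Pttg1, Kif14, Gli1, Bbc3, Eda2r, Plk2, Ccn1, Neurod1 and the genes of the bins were named after their values were seen. Alternatives changed the UMI cutoff, barcode filters, doublets, pseudocount, minimum and scaling. Doublets were scored with Scrublet in scanpy 1.11.5. The scripts were checked on simulated counts. Gene positions come from GENCODE M21 and promoter windows from RefSeq. Computation used Python 3.11.15, numpy 2.4.6, scipy 1.17.1, pandas 2.3.3 and matplotlib 3.10.9.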

Additional observations from a re-analysis of the deposited data

Results flagged for a closer look

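Within G2/M cells, 5 of 7056 genes (0.0709%) were more than 2-fold higher in YSG in 1 sex and more than 2-fold lower in the other, and none of these differences was tested. Ren1, the renin gene, had a YSG over SG log2 ratio of -1.04 for males and 5.30 for females, from 37, 3, 80 and 1716 UMIs in the males of SG and of YSG and the females of SG and of YSG, the order used for each gene here. It was found in 1.69%, 0.247%, 3.24% and 27.1% of G2/M cells, so YSG females were the high library, and its near-identical copy Ren2, where the strain carries it, may share reads. Hoxb2, a hindbrain homeobox gene, had -3.57 and 1.10, from 287, 0, 423 and 349 UMIs. With 0 UMIs in YSG males, the lower limit of the interval of the fold put Hoxb2 at least 51.5-fold lower there. Mid1, an X-linked ubiquitin ligase gene, had 2.39 and -2.89, from 209, 804, 1650 and 69 UMIs. Hist1h2ap, a histone H2A gene with near-identical copies and so an uncertain value, had 2.63 and -1.504, from 400, 1740, 3293 and 417 UMIs. Gm10076, a transcript with no assigned name, had 1.66 and -1.07, from 899, 1937, 3672 and 634 UMIs. In these last 3 genes the CPM were highest in YSG males and SG females. All 5 had ratios of the same signs in the remaining barcodes.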

How the results depend on the processing

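No paired analysis was possible because each group is 1 library, and no replicate could be left out. The share ratio was below 1 under every setting tried. With 10 UMIs of the 5 genes required per 10000 UMIs, it was 0.919 for males and 0.721 for females. Genes higher in YSG in both sexes numbered 35 with a pseudocount of 5 CPM, 129 with no minimum and 29 with a minimum of 50 CPM, and genes lower numbered 242 with no minimum and 49 with 50 CPM. Genes higher in G2/M cells than in the remaining barcodes numbered 202 with 5 or more UMIs of the 5 genes and 273 against barcodes with no such UMI, an alternative added after the data were seen. The count of genes lower in G2/M cells, 5 in the report, was 16 with 5 or more UMIs, 3 with 20 or more, 15 without the top doublet scores, 16 by the rate per 10000, 2 with a pseudocount of 5 CPM, 11 with no minimum, 40 with the mean of per-cell CPM and 43 against barcodes with no UMI of the 5 genes. The causes were not tested. No scaling moved the median of all genes by over 0.1 on the log2 scale. With the mean of per-cell CPM the female YSG over SG medians were lower, at -0.05 against 0.08 for cytokinesis genes, 0.11 against 0.24 for kinetochore genes, 0.07 against 0.19 for kinesins, 0.07 against 0.16 for the passenger complex, 0.05 against 0.16 for the checkpoint, 0.08 against 0.18 for spindle genes, 0.10 against 0.15 for condensin genes and 0.08 against 0.15 for all mitotic lists. Scarce transcripts such as Yap1 are limited by depth.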

Other observations

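G2/M cells also carried transcripts of genes better known from other cell types, and these differed by genotype. Pdgfra, the receptor gene that marks oligodendrocyte precursors, was at 27.4, 68.0, 26.5 and 75.1 CPM in G2/M cells, in the order of the report, and at 30.7, 71.7, 28.0 and 77.1 CPM in the remaining barcodes. The other 4 precursor genes, Olig1, Olig2, Sox10 and Cspg4, summed to 16.1, 13.0, 18.4 and 9.33 CPM in G2/M cells, lower in both YSG libraries, so the list did not follow Pdgfra. In the remaining barcodes these 4 genes summed to 22.4, 14.7, 18.8 and 14.8 CPM. Slc17a6, the vesicular glutamate transporter gene of excitatory neurons, was at 113, 224, 114 and 242 CPM. Both YSG libraries lay above both SG libraries for Pdgfra and Slc17a6. Fabp7, a radial glia gene, was at 81.1, 19.2, 98.8 and 12.5 CPM, and Apoe, an astroglial lipid carrier, at 62.8, 42.3, 88.1 and 18.9 CPM. These were lower in YSG in both sexes. Choroid and ependyma genes summed to 0.951 to 1.76 CPM in G2/M cells, and fibroblast and mural genes to 16.9, 1.59, 10.7 and 2.38 CPM, higher in both SG libraries. In the remaining barcodes fibroblast and mural genes summed to 23.3, 2.43, 19.4 and 2.79 CPM, so their difference by genotype was not particular to G2/M cells.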
